A study of Mus musculus with 123 samples.

Results

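The 7 genes described here are Kit, Gpx3, Smr2, Comp, Cldn9, Gng8 and Insrr, taken by name from 24134 genes in the deposited table as markers of peptidergic (PEP) sensory neurons that do not encode a neuropeptide. They were followed in dorsal root ganglion (DRG) neurons after sciatic nerve transection (SNT), in which the right sciatic nerve was cut at mid thigh and neurons of the uncut left side served as control. The day-3 mice were 2 months old, F1 offspring of a CAST/Eij father and a C57BL/6 mother and female by the study's methods, and the day-7 mice were C57BL/6 mice of the same age and both sexes. No transgene, deletion or drug other than the anaesthetic is named for any group. Single somata were picked by hand and made into Smart-seq2 libraries, and after removal of 11 outlier cells by the authors the table held 41 SNT and 18 control cells of day 3, and 33 SNT and 14 control cells of day 7. In addition, 3 pooled libraries per side were made at day 3 from 1 lysate of many neurons, so that these 3 are technical parts of 1 sample. Day 3 and day 7 also differed in strain, in the ganglia taken (L5 by the labels at day 3, L3 to L5 at day 7) and in read type, so each day was compared only with its own control side. The labels do not say which animal a cell came from. Each side and day is therefore 1 sample of cells, and differences between cells of the sides are given without a p-value.

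PEP neurons are small and medium DRG neurons that release calcitonin gene-related peptide (CGRP, encoded by Calca) and substance P (Tac1) from their endings and signal pain, heat and itch. After a nerve cut, sensory neurons turn on injury genes such as the transcription factor Atf3 and lower many of the genes by which their subtype is recognised. The members fall into surface receptors and their signalling (Kit, the receptor tyrosine kinase for stem cell factor; Insrr, an orphan receptor of the insulin receptor family that senses alkaline pH; Gng8, a gamma subunit of heterotrimeric G proteins), secreted proteins (Gpx3, an extracellular glutathione peroxidase; Smr2, a small secreted protein first known from the submaxillary gland; Comp, a pentameric matrix protein of the thrombospondin family) and a tight junction protein (Cldn9).

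On mouse chromosomes, Kit and Smr2 lie on chromosome 5, Gpx3 on 11, Comp on 8, Cldn9 on 17, Gng8 on 7 and Insrr on 3. Of the 7, Insrr is the member that overlaps another annotated gene, Pear1, which runs on the opposite strand. Their annotated exons share 0 of the 5714 exonic bases of Insrr in GENCODE, which is not the annotation used for counting, and no source says whether strand was used. RefSeq promoter sequences (GRCm38.p6) were at hand for 4 members. The 250 bases before the start site are shown for Smr2 and Gng8, whose levels were correlated across day-3 cells (r = 0.70). They are also shown for Kit, which was not lower with them on the SNT side at day 3. Capitals mark a match to the AP-1 motif (TGACTCA on either strand, bound by Jun and its partners) or to a GC box (GGGCGG on either strand). The windows are chr5:88086306-88086555, chr7:16891536-16891785 and chr5:75574737-75574986, all on the plus strand.

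Smr2: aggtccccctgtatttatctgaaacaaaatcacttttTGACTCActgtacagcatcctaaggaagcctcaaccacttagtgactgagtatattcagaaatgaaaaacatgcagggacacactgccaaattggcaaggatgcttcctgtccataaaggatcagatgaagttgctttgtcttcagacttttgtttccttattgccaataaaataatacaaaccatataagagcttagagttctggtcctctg

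Gng8: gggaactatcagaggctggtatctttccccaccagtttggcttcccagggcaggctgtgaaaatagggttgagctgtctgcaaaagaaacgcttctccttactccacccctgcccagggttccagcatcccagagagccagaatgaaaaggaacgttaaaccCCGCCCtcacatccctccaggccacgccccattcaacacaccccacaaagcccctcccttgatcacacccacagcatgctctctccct

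Kit: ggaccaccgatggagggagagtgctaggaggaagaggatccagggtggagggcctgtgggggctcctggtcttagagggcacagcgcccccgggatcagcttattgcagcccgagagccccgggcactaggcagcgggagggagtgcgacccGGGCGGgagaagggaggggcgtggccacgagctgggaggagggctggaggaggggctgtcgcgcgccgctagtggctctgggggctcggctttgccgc

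The Smr2 window held 1 AP-1 match, 213 to 207 bases before the start, a motif present in 4.46% of 32841 promoter windows of this length. Those of Gng8, Kit and Gpx3 held 1 GC box each (32.7% of all windows) and no AP-1 match, and none of the 4 held the cAMP response element TGACGTCA (1.55%). G and C made up 39.2% of the Smr2 window, 56% of that of Gng8 and 70.8% of that of Kit, against a median of 52.4% over all windows. Comp, Cldn9 and Insrr had no entry.

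The name of the group was first checked against Calca. Cells with Calca at 100 CPM (a library's counts divided by their sum and multiplied by 1000000) or more were taken as Calca-high: 27 SNT and 14 control cells at day 3, and 11 SNT and 7 control cells at day 7. Of all 106 kept cells, 59 were Calca-high. A member was counted in a cell at 10 CPM or more. All 15 cells with Comp, all 9 with Cldn9 and all 14 with Insrr were Calca-high, as were 25 of 27 cells with Gng8 and 12 of 14 with Smr2. Kit was less tied to Calca, with 43 of its 66 cells Calca-high (72.9% of Calca-high and 48.9% of Calca-low cells). Gpx3 went against the label: 18 of its 37 cells were Calca-high, which is 30.5% of Calca-high and 40.4% of Calca-low cells. These shares pool both sides and days and are given as a description. The set is therefore called by its gene names below, and by this share Gpx3 was not a marker of Calca-high cells in these libraries. Its mean was higher in Calca-high than in Calca-low cells on the control side of day 3 (134 and 11.8 CPM). It was lower in day-3 SNT (22.7 and 41.7 CPM), day-7 control (2.40 and 21.1 CPM) and day-7 SNT cells (8.34 and 10.1 CPM). Neuronal genes (Tubb3, Snap25, Prph, Uchl1, Avil and Isl1 summed) were present in every kept cell, from 5923 to 17911 CPM.

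Depth ranged from 261351 to 1849130 counts in the kept cells. SNT cells were deeper than control cells at day 3 (medians 1323932 and 862619) and shallower at day 7 (575179 and 738947), so a count at 10 CPM rested on few reads in the smallest libraries. The pooled libraries held 563462 to 2003817 counts, and 3 counts, taken as the lowest level that can be told from absence, correspond to 1.5 to 5.32 CPM in them. Satellite and Schwann cell genes were present in all kept cells (10 genes summed, 563 to 14556 CPM) and 0 of the 10 passed 2-fold between the sides over all cells at either day.

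In the pooled libraries of day 3, Comp was the member that changed (edgeR quasi-likelihood test). Comp stood at 79.8, 106 and 114 CPM in the 3 control libraries and at 2.39, 4.35 and 3.99 CPM in the 3 SNT libraries. The groups were far apart, and each SNT library rested on 4, 5 or 8 counts. The log2 change was -4.62 (SE 0.34, adjusted p = 5.1e-14, 3 libraries per side). Of 10 satellite and Schwann cell genes 1 was higher and 4 were lower in the SNT pool, as was 1 of 5 tested fibroblast genes (Col1a2, log2 change -1.18, SE 0.39), and the part of these cells in the result was not tested. Whether fewer neurons held Comp or each held less of it cannot be told apart in a pool. Over all 13509 genes tested, 15.9% changed (adjusted p below 0.05 and more than 2-fold), 7.1% lower and 8.83% higher on the SNT side. Of the 7 members 4 reached the mean of 1 CPM needed for testing and 1 of these changed, and since 3 members were too low to test, this count does not describe the whole set.

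Kit stood at 93.5, 50.1 and 28.4 CPM in the control and 94.5, 85.3 and 59.9 CPM in the SNT libraries. The sides overlapped, and the log2 change of 0.60 (SE 0.26, adjusted p = 0.094) missed the threshold. It passed, at 1.11 (adjusted p = 0.0053), when the highest control library was left out. Gpx3 ran from 4.13 to 17.7 CPM in control and from 6.96 to 12.5 CPM in SNT libraries, a log2 change of 0.21 (SE 0.58, adjusted p = 0.85) whose sign depended on single libraries. Gng8 had 0, 2 and 3 counts in control and 0, 0 and 1 in SNT libraries. Its log2 change of -2.89 (SE 1.56, adjusted p = 0.18) missed the threshold, and the ratio of summed counts per total, SNT over control, was 0.0883 (exact 95% counting interval 0.00187 to 0.789). Smr2 and Cldn9 had at most 4 counts in any library, and Insrr had 0 counts in all 6. The pool was thus informative for Comp and Kit, and Smr2, Cldn9, Gng8 and Insrr were at or near its floor. Gpx3 lay between, with 3, 5 and 9.96 counts in control and 12, 8 and 25 counts in SNT libraries.

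**Figure D1:**
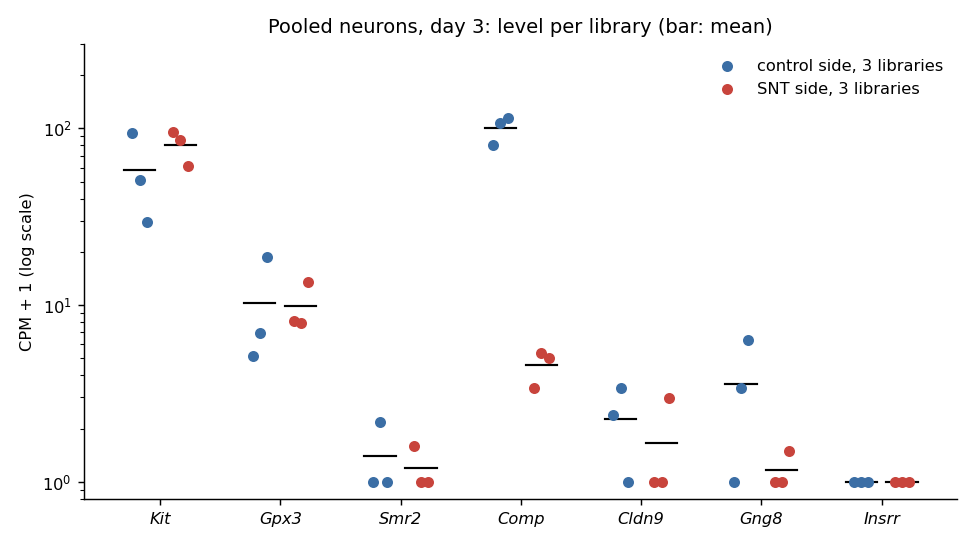
Level of each member in the pooled day-3 libraries (CPM + 1 on a log axis), 3 control-side (blue) and 3 SNT-side (red) libraries, with a bar at the mean. Comp separated the sides, Kit and Gpx3 overlapped, and Smr2, Cldn9, Gng8 and Insrr lay at or near the floor of 1.5 to 5.32 CPM.

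The columns were assigned to sides by their names. The table's second line, which holds identifiers, ties these names to the opposite sides, and if it is right, each pooled change takes the opposite sign. The columns named for SNT were the ones with higher injury genes, 6 of 6 changed (Atf3, Jun, Sprr1a, Gal, Npy and Sox11).

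In single cells at day 3, 6 of the 7 members had a mean more than 2-fold lower on the SNT side, the higher mean being 10 CPM or more: Comp, Gng8, Insrr, Gpx3, Cldn9 and Smr2. Over all 9736 genes with at least 10 CPM on 1 side, 11.9% passed 2-fold, 6.07% lower and 5.82% higher. Kit was the exception. Ratios are of mean CPM + 1 throughout, which understates changes of low genes, and no interval was computed for them because the cells of a side are 1 sample. Each mean rested on few cells, as the plot of day-3 cells shows.

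**Figure D2:**
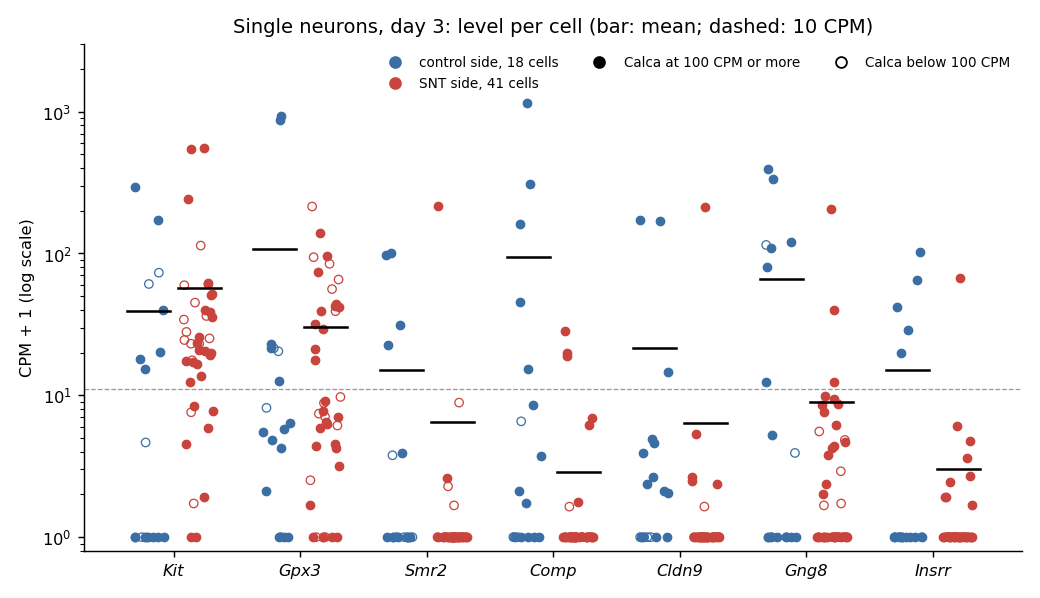
Level of each member in every kept day-3 cell (CPM + 1 on a log axis), 18 control-side cells in blue and 41 SNT-side cells in red, filled where Calca was at 100 CPM or more, with bars at the means and a dashed line at 10 CPM. Comp, Gng8, Smr2, Cldn9 and Insrr were carried by a few filled control cells, 1 SNT cell held Smr2, Cldn9, Gng8 and Insrr at control-like levels, and Kit lay above 10 CPM in most SNT cells.

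Comp had a mean of 94.2 ± 275 CPM (SD, n = 18 cells) in control and 1.88 ± 5.82 CPM (n = 41) in SNT cells, a log2 ratio of -5.05. In the control cells it ran from 0 over a median of 0.942 to 1152 CPM, and in the SNT cells from 0 over a median of 0 to 27.6 CPM. It was at 10 CPM or more in 5 of 18 control cells (27.8%, exact binomial 95% interval 9.69 to 53.5) and 3 of 41 SNT cells (7.3%, 1.54 to 19.9). Of the 5 control cells 4 lay above every SNT cell, so both the share of cells and the level within them were lower, although the intervals of the shares overlap. The ratio was -3.52 without the highest control cell, titled n3.15. That cell also held fibroblast genes at 407 CPM (Dcn, Lum, Col1a1, Col1a2, Col3a1 and Pdgfra summed), against medians of 50.5 in control and 51.5 in SNT cells. In the other control cells with Comp this sum was 366 CPM (n3.14), 97.3 CPM (n3.19), 59.7 CPM (n3.9) and 13.8 CPM (n3.5). The part of fibroblasts and of satellite and Schwann cells in the Comp result was not tested. Within Calca-high cells the log2 ratio was -4.99 (121 ± 310 CPM in 14 control and 2.82 ± 7.03 CPM in 27 SNT cells), and -3.47 without n3.15.

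Gng8 averaged 64.8 ± 118 CPM in control and 7.99 ± 32.3 CPM in SNT cells, a log2 ratio of -2.87. It reached 10 CPM in 7 of 18 control cells (38.9%, 17.3 to 64.2) and 3 of 41 SNT cells (7.3%, 1.54 to 19.9), with maxima of 394 and 205 CPM. Gng8 and Comp thus stood out together in a minority of the control cells. Insrr averaged 14 ± 28.2 CPM in control and 2.02 ± 10.3 CPM in SNT cells (log2 ratio -2.32), and reached 10 CPM in 5 of 18 and 1 of 41 cells. Its highest levels were 100.9 CPM in control and 65.7 CPM in SNT cells. Within Calca-high cells the log2 ratios were -2.58 for Gng8 and -2.23 for Insrr.

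Smr2 and Cldn9 were lower by a smaller margin and on fewer cells. Smr2 averaged 14.2 ± 31.9 CPM in control and 5.49 ± 33.4 CPM in SNT cells (log2 ratio -1.22), and was at 10 CPM or more in 4 control cells and 1 SNT cell. Cldn9 averaged 20.5 ± 54.6 CPM and 5.42 ± 33.2 CPM (log2 ratio -1.75), in 3 control cells and 1 SNT cell. In both genes the SNT mean came almost wholly from the same cell, titled s3.20, which held 214 CPM of Smr2, 213 of Cldn9, 205 of Gng8 and 65.7 of Insrr, all 7 members at 10 CPM or more, Calca at 20041 CPM and Atf3 at 0.65 CPM. Without it the log2 ratios were -3.56 for Smr2, -4.12 for Cldn9, -4.02 for Gng8 and -3.40 for Insrr. Both genes dropped inside 2-fold when 1 control cell was left out (Smr2 -0.64 without n3.14, Cldn9 -0.98 without n3.12) or when 10 was added in place of 1 (-0.64 and -0.99). Insrr was at -1.72 without the control cell n3.19. Fibroblast genes, summed as above, were at 715 CPM in n3.12, 366 CPM in n3.14, 97.3 CPM in n3.19 and 88.3 CPM in n3.1. These are the control cells with Smr2 at 10 CPM or more, and n3.12, n3.14 and n3.15 (407 CPM) are those with Cldn9. Satellite and Schwann cell genes summed ran from 3649 to 14556 CPM in the 7 control cells with Gng8 at 10 CPM or more. These include every control cell with Smr2, Cldn9 or Insrr at that level. Calca-high control cells without Gng8 ran from 1078 to 2000 CPM. The Calca-low control cells n3.3, n3.4 and n3.7, also without Gng8, held 10837, 8648 and 3940 CPM. The part of fibroblasts and of satellite and Schwann cells in the Smr2, Cldn9, Gng8 and Insrr results was not tested.

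Among Calca-high cells, 6 members were past 2-fold and lower (10.1% of 9584 genes, 4.17% lower and 5.96% higher): Comp, Gng8, Insrr, Gpx3, Cldn9 and Smr2. Genes of nonpeptidergic neurons (Mrgprd, P2rx3, Lpar3, Gfra2, Scn11a, Plxnc1, Prkcq and Ret summed) were present in these cells too. Their sum had a median of 2965 CPM (80.1 to 8868) in control and 2528 CPM (46.9 to 7849) in SNT Calca-high cells. The limit thus did not hold the mix of subtypes fixed, and the part of this mix in the ratios was not tested. Calca itself was not matched by the limit. Its median was 524 CPM in the SNT and 2934 CPM in the control Calca-high cells, and 9 SNT cells but 0 of 14 control cells lay between 100 and 200 CPM (0 of 14 allows a share of up to 21.4%). The limit was then raised to 1000 CPM, leaving 12 cells per side. Comp (-4.46), Gpx3 (-4.01), Gng8 (-1.90) and Insrr (-1.56) stayed past 2-fold there, and Smr2 (-0.22) and Cldn9 (-0.71) did not. Calca was not matched at this limit either. Control cells n3.1, n3.12, n3.14, n3.15 and n3.19 held more Calca than every SNT cell except s3.20. Without s3.20 the Calca-high ratios were -4.16 for Smr2, -4.35 for Cldn9, -3.86 for Gng8 and -3.52 for Insrr. In these cells upper-quartile scaling took Smr2 to -0.90, inside 2-fold, and leaving out n3.14 took Smr2 to -0.50 and leaving out n3.12 took Cldn9 to -0.82. Atf3 had a median of 1575 CPM in the 27 SNT Calca-high cells, and in 17 of them exceeded the highest control cell (75.7 CPM). Of the 12 SNT cells left at the 1000 CPM limit, only s3.11 and s3.27 exceeded it. The comparison at that limit thus rested mostly on SNT cells without Atf3 above control, and the part of this in its ratios was not tested.

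The Gpx3 mean rested on a pair of very bright control cells. Its mean was 107 ± 288 CPM in control and 29.2 ± 44.1 CPM in SNT cells (log2 ratio -1.83), but the medians were 5.10 and 6.70 CPM. It was at 10 CPM or more in 7 of 18 control cells (38.9%, 17.3 to 64.2) and 17 of 41 SNT cells (41.5%, 26.3 to 57.9). Of the control cells 2 lay above every SNT cell, at 872 and 925 CPM. Leaving out the higher one, n3.15, gave -0.98, inside 2-fold (-1.64 from -2.51 among Calca-high cells), and the ratio of medians had the opposite sign. In the pooled libraries of the same day the control mean was 9.25 CPM, far under the mean of the control cells.

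Kit went the other way in its share of cells. It averaged 38.4 ± 76.9 CPM in control and 56.5 ± 120 CPM in SNT cells, a log2 ratio of 0.55, inside 2-fold. Its median was 1.83 CPM in control and 22.1 CPM in SNT cells. Kit was at 10 CPM or more in 8 of 18 control cells (44.4%, 21.5 to 69.2) and 32 of 41 SNT cells (78.0%, 62.4 to 89.4), and thinning each cell to 200000 counts left 7 and 32. Leaving out the highest control cell (n3.9, 294 CPM) moved the log2 ratio to 1.24, and among Calca-high cells from 0.76 to 1.71. Mast cells, which also make Kit, were looked for by 7 genes (Cpa3, Tpsb2, Mcpt4, Cma1, Fcer1a, Ms4a2 and Hdc), none of which reached a mean of 10 CPM on either side and whose sum had a median of 0 on both sides and a maximum of 77.7 CPM. Satellite and Schwann cell genes did move with Kit. At day 3 their sum had a median of 8492 CPM (3649 to 14556) in the 8 control cells with Kit at 10 CPM or more and 1727 CPM (1078 to 8648) in the other 10, and of 6007 CPM (938 to 11063) in the 32 SNT cells with Kit and 2242 CPM (1016 to 3644) in the other 9. Among Calca-high cells the 6 control cells with Kit (3649 CPM or more) and the 8 without (2000 CPM or less) did not overlap, and the median was 3675 CPM in SNT and 1895 CPM in control cells. The part of these cells in the Kit result was not tested. The 11 outlier cells, left out above, all held Kit at 183 CPM or more.

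**Figure D3:**
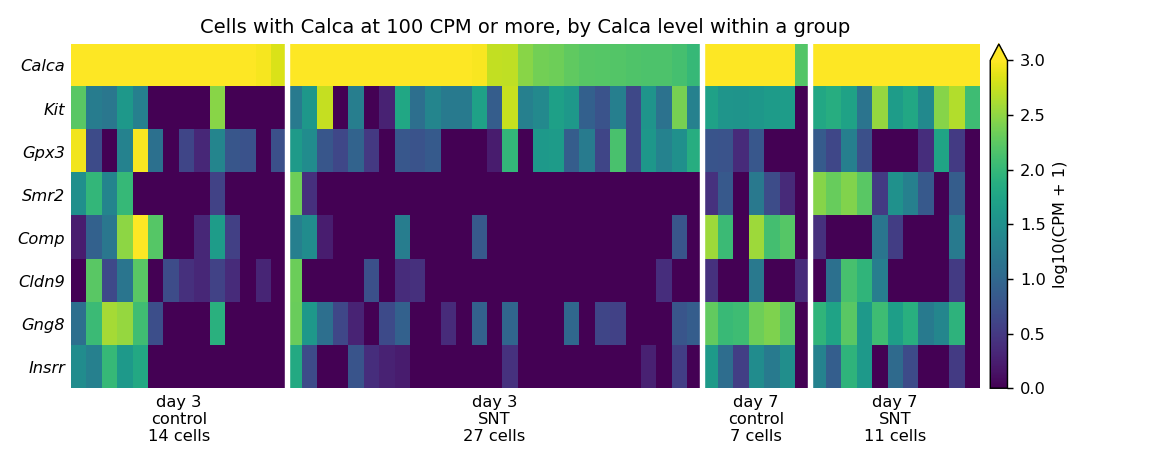
Calca and the 7 members in each Calca-high cell, as log10(CPM + 1) in colour from 0 to 3, with 14 control and 27 SNT cells of day 3 and 7 control and 11 SNT cells of day 7, ordered by Calca within a group. At day 3 the control cells with Smr2 or Insrr at 10 CPM or more were all among the 5 with most Calca, Comp was dark in the SNT cells of both days, and Smr2 was bright in several SNT cells of day 7.

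At day 7 the set split. Comp and Gng8 were more than 2-fold lower on the SNT side, Smr2 was more than 2-fold higher, and the remaining 4 did not pass (all 9622 genes: 7.66% past 2-fold, 3.2% lower, 4.45% higher). Calca-high cells made up 11 of 33 SNT and 7 of 14 control cells, so the comparison within Calca-high cells is given beside each value. These Calca-high groups differed in neuronal genes, whose sum had a median of 8029 CPM (5923 to 11990) in SNT and 13088 CPM (11070 to 13803) in control cells. Of the 6 neuronal genes 2 were past 2-fold lower (Prph and Avil), and 2 of 10 immune and 4 of 5 erythrocyte genes were higher, with sums of up to 760 and 4670 CPM in SNT cells. The part of these differences in the Kit, Smr2 and Cldn9 values was not tested.

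Comp averaged 80.3 ± 132 CPM in control (n = 14) and 1.11 ± 3.55 CPM in SNT cells (n = 33), a log2 ratio of -5.27. It reached 10 CPM in 5 of 14 control cells (35.7%, 12.8 to 64.9) and 2 of 33 SNT cells (6.06%, 0.74 to 20.2), and the 5 control cells all lay above the highest SNT cell. Among Calca-high cells it ran from 0 over a median of 127 to 363 CPM in 7 control cells and from 0 over 0 to 15.6 CPM in 11 SNT cells (log2 ratio -5.32). In female Calca-high cells the mean was 158 CPM in 3 control cells, and both SNT cells were at 0. In male Calca-high cells it was 162 CPM in 4 control and 3.7 CPM in 9 SNT cells (log2 ratio -5.12). Comp and Gng8 were the members lower past 2-fold in all 4 cell comparisons (all kept and Calca-high cells of each day), and of these Comp also passed the test in the pool. The SNT Calca-high cells of the 2 days differed in Atf3. It exceeded the highest control cell in 17 of 27 at day 3 and in 1 of 11 at day 7. The part of this in the day-7 values was not tested.

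Gng8 averaged 76.8 ± 97.3 CPM in control and 22.6 ± 41.5 CPM in SNT cells (log2 ratio -1.72). In Calca-high cells its median was 175 CPM (0 to 261) in control and 54.3 CPM (0 to 172) in SNT cells, a log2 ratio of -1.20. Gng8 was at 10 CPM or more in most Calca-high cells of both sides, 6 of 7 control and 10 of 11 SNT cells, and the difference was in the level per cell. In 4 of the 7 control cells the level was above that of every SNT cell. Insrr averaged 18.3 ± 15.3 CPM in control and 15.5 ± 26.8 CPM in SNT Calca-high cells (log2 ratio -0.22), in 5 of 7 and 3 of 11 cells, and the ratio was -1.05 without the SNT cell s7.21.

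**Figure D4:**
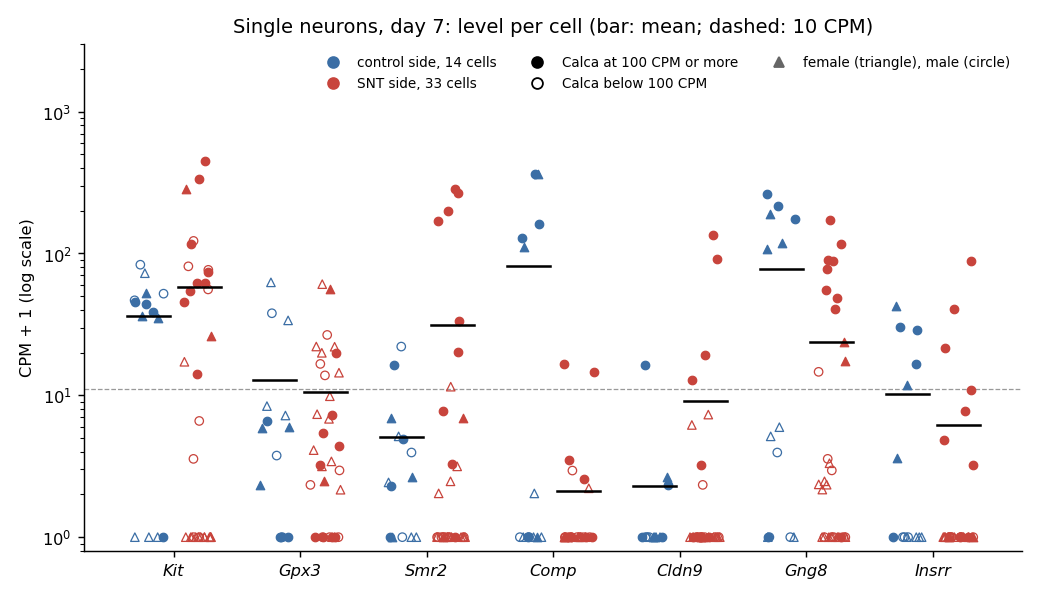
Level of each member in every kept day-7 cell (CPM + 1 on a log axis), 14 control-side cells in blue and 33 SNT-side cells in red, triangles for female and circles for male mice, filled where Calca was at 100 CPM or more, with bars at the means and a dashed line at 10 CPM. Comp and Gng8 were higher in filled control cells, and high Smr2 and Cldn9 were seen in filled SNT circles.

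Smr2 was higher on the SNT side. It averaged 4.12 ± 6.34 CPM in control and 30.2 ± 77.2 CPM in SNT cells (log2 ratio 2.61), and in Calca-high cells 4.01 ± 5.42 CPM (n = 7, 0 to 15.3) and 89.4 ± 115 CPM (n = 11, 0 to 285), a log2 ratio of 4.17. Of the 11 SNT cells 6 lay above every control cell, 4 of them between 168 and 285 CPM. All 6 were from male mice. In male Calca-high cells the mean was 109 CPM in 9 SNT and 5.12 CPM in 4 control cells (log2 ratio 4.16), whereas the 2 female SNT cells and 3 female control cells were all under 6 CPM (log2 ratio 0.18). With 2 female SNT cells a difference between the sexes was not detectable, and over all female cells the log2 ratio was -0.31. The day-3 mice, in which 4 control cells held Smr2 at up to 100.6 CPM, were female.

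Cldn9 followed in part. In Calca-high cells it averaged 2.61 ± 5.64 CPM in control (0 to 15.3) and 23.4 ± 45.5 CPM in SNT cells (0 to 134), a log2 ratio of 2.75, with 3 of 11 SNT cells above every control cell. These 3 cells were male as well. The ratio was 4.02 without the control cell n7.11 and 1.88 without the SNT cell s7.21, and that of Smr2 was 4.85 without n7.11. Over all day-7 cells neither side reached 10 CPM (1.31 and 8.18 CPM). The cell s7.21, with most Cldn9, also had the most Gng8 and Insrr of its group, at 172 and 87.5 CPM.

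Kit in Calca-high cells averaged 35.2 ± 16.7 CPM in control (0 to 51.6, median 37.6) and 138 ± 147 CPM in SNT cells (13.3 to 447, median 61.3), a log2 ratio of 1.94. It was at 10 CPM or more in 11 of 11 SNT and 6 of 7 control cells, and 8 of the 11 SNT cells lay above every control cell. Over all cells the ratio was 0.66, with 48.5% of SNT and 71.4% of control cells at 10 CPM or more. The higher Kit level was thus seen among Calca-high cells, not across the picked population. In male Calca-high cells the log2 ratio was 2.06 (9 SNT and 4 control cells). In female Calca-high cells it was 1.91, which rested on 1 of 2 SNT cells. These were at 284 CPM and at 25.3 CPM, the latter below all 3 female control cells (34.2 to 51.6 CPM). The glial sum moved with Kit at this day too, from 4334 to 9822 CPM in the 10 control cells with Kit at 10 CPM or more and from 1265 to 1462 CPM in the other 4, with a median of 5972 CPM in SNT and 5139 CPM in control Calca-high cells, and its part was not tested. The SNT cell with most Kit (447 CPM) held immune genes at 760 CPM (10 genes summed), and without it the log2 ratio was 1.57. Atf3 was above the highest control cell (29 CPM) in 1 of the 11 SNT cells, with a median of 0, so the other cells carried the SNT label without Atf3 above control. Counting Kit, Smr2, Cldn9, Comp and Gng8, 5 members were past 2-fold here (11% of 9588 genes, 3.93% lower, 7.09% higher), 2 lower and 3 higher. Gpx3 did not reach 10 CPM on either side (2.40 and 8.34 CPM).

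**Figure D5:**
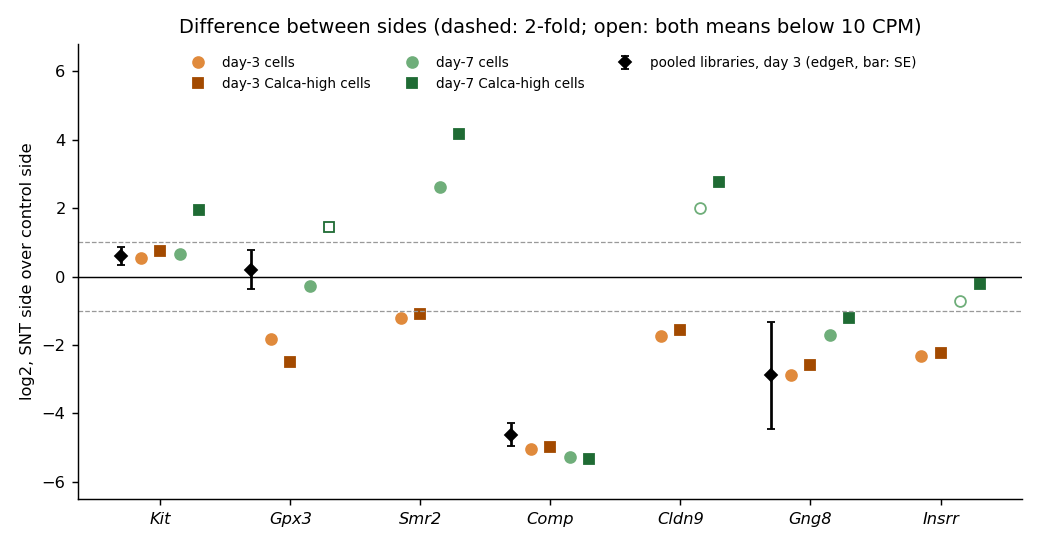
Difference between the SNT and control sides on the log2 scale for each member in the pooled day-3 libraries (edgeR, bar of 1 SE, tested members only), in all kept cells and in Calca-high cells of day 3 and day 7. Comp lay between -4.62 and -5.32 in all 5 comparisons, Kit was above 0 in all 5, and Smr2 and Cldn9 were below 0 at day 3 and above 0 at day 7.

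Within cells, Gng8 and Insrr often occurred together. Of the 32 control cells of both days, 13 held Gng8 and 10 held Insrr at 10 CPM or more, and all 10 Insrr cells held Gng8. Kit, at this level in 18 control cells, was in all 13 Gng8, all 10 Insrr, all 6 Smr2 and all 4 Cldn9 cells. It was also in 9 of the 10 Comp and 8 of the 10 Gpx3 cells. Comp and Gng8 shared 9 of the 10 Comp cells, and all 4 Cldn9 cells held Gng8 and Insrr. Cells with 4 or more members were all Calca-high, 6 of 14 control and 2 of 27 SNT cells at day 3, and 5 of 7 and 5 of 11 at day 7. Over the 59 kept day-3 cells, the genes with the most similar pattern to Insrr (Pearson's r of log2(CPM + 1) among 11627 genes) were Ptchd1 (0.82), Htr3a (0.82) and Kif26a (0.76). Those of Gng8 were Htr3a (0.80), Hgf (0.79) and Tmem100 (0.76), and those of Comp were Htr3a (0.76), Gng8 (0.75) and Htr3b (0.71). Htr3a and Htr3b encode subunits of the serotonin-gated ion channel. Smr2 was most like Ndufb3 (0.78), Insrr (0.76) and Gng8 (0.70), and Kit was most like Fbln2 (0.80), Zeb2 (0.79) and Sept9 (0.78), none of which is a member. For Gpx3 no gene reached 0.6, and Cldn9 was in too few cells to be ranked. These correlations are over cells of both sides, which share depth and side differences, and are descriptions.

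Other PEP genes of the list, among them the neuropeptides, moved in both directions in the pool, 7 of 10 changed, 4 higher and 3 lower. Lower were Calcb, the second CGRP gene (274, 289 and 320 CPM in control, 53.5, 56.8 and 55.7 CPM in SNT libraries, log2 change -2.24, SE 0.17), Trpv1, the heat and capsaicin channel (log2 change -3.04, SE 0.23), and Tac1 (49.5, 25 and 44.4 CPM against 0, 0 and 0.499 CPM). Higher were Adcyap1, the peptide PACAP (8.25, 25 and 16 against 774, 668 and 751 CPM, log2 change 5.59, SE 0.22), Gfra3, the artemin receptor (3.4, SE 0.23), Prokr2, the prokineticin receptor (6.61, SE 0.38), and Cntnap2 (1.01, SE 0.22). Calca fell by 0.85 on the log2 scale (SE 0.12, adjusted p = 5.8e-07), short of the 2-fold limit. In day-3 cells 6 of the 10 passed 2-fold, among them Calca (-1.46), Calcb (-1.71) and Tac1 (-2.95) lower and Adcyap1 (2.75) and Gfra3 (3.4) higher. Comp, Calcb and Tac1 were thus lower in both the pool and the cells of day 3, and Adcyap1 and Gfra3 higher. The other 3 genes called in the pool were inside 2-fold in these cells, Trpv1 with means of 73.9 CPM in SNT and 74.0 CPM in control cells, Prokr2 at 0.59 and Cntnap2 at -0.63, the opposite sign to the pool. In day-7 Calca-high cells, 5 of the 9 genes of this list with at least 10 CPM on 1 side were past 2-fold, all higher in SNT cells, and 0 were lower (median log2 ratio 2.31, against -0.02 over all genes). Calca (0.51) and Calcb (0.30) were inside 2-fold, and Comp was at -5.32.

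The relatives of each member gave a mixed picture in the pool. Of the receptors related to Kit and its ligand, Flt3 rose (log2 change 1.28, SE 0.34) and Pdgfrb fell by 2.60 (SE 0.44), Csf1r, a receptor of macrophages, was at 0 in the control and 3.5 to 7.2 CPM in the SNT libraries, and Kitl, the Kit ligand, was 0.95 higher (SE 0.32, adjusted p = 0.023), inside 2-fold. Of 8 tested gamma subunits Gng4 rose (2.75, 0 and 0 CPM in control, 28.7, 7.83 and 21.5 CPM in SNT libraries) and Gng12 fell by 1.06 (SE 0.33), and the 6 others, among them Gng3 (0.45), did not pass. Of 7 tested claudins Cldn5, Cldn11 and Cldn23 passed, all at or below 6.99 CPM. No other glutathione peroxidase (0 of 5), thrombospondin (0 of 3) or insulin receptor family gene (0 of 2) changed by edgeR, DESeq2 or limma, and at an unadjusted p under 0.05 each of these tools gave 0 of 5, 0 of 3 and 1 of 2. The last was Igf1r, a receptor of insulin-like growth factors, which fell by 0.81 on the log2 scale in edgeR (SE 0.27, adjusted p = 0.024), inside 2-fold. Smr3a and Prol1, relatives of Smr2, had 0 counts in all 6 libraries.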

How the data were processed

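Single DRG neurons of the SNT and control sides (117 deposited, 106 kept by the authors) and 6 pooled libraries were analysed. Per the methods and the labels' processing notes, the authors demultiplexed Smart-seq2 reads with CASAVA 1.8.2, mapped them with Bowtie2 and counted RefSeq exons with RSEM (build mm9, ribosomal RNA left out), with reads of 50 bases at day 3 and 75 bases, paired, at day 7. The deposited values are named TPM, but column totals run from 223967 to 2003817 and 77.2% of values above 0 are whole, so they were treated as RSEM expected counts. Values were divided by the column total and multiplied by 1000000 (CPM). The protocol label of the day-7 cells names both days, and their titles placed them at day 7.

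Pooled libraries were compared on rounded expected counts with edgeR 4.0.16 (quasi-likelihood test, TMM scaling, low genes under a mean of 1 CPM left out, Benjamini-Hochberg adjustment over all genes), and changed means more than 2-fold at an adjusted p under 0.05. The SE given with a pooled log2 change was derived from the test, as the size of the change divided by the square root of its F statistic. The 3 libraries of a side are parts of 1 lysate, so p-values measure technical spread. Library numbers do not pair the sides (correlations of deviations 0.058, -0.017 and -0.007). In cells the log2 ratio of (mean CPM + 1) was used, without a test, and shares have exact Clopper-Pearson 95% intervals, which cover counting error only, since PCR reads without molecular identifiers are not independent molecules. DESeq2 1.42.0, limma 3.58.1, other scalings, filters, pseudocounts, thinning, and leaving out libraries or cells were the alternatives. Both procedures were tested on simulated data. Named genes are the members, genes of the lists, and for each member the 3 genes of highest correlation over day-3 cells, named where r was at least 0.6. The members and lists were chosen with earlier results of these data known. Symbols changed to dates by a spreadsheet (27) were read from the second table. Promoters came from RefSeq (GRCm38.p6) and gene overlaps from GENCODE (GRCm38), which is not the build of the files, so gene coordinates are not given. The values of 1 gene of the peptidergic list are not reported here.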

Additional observations from a re-analysis of the deposited data

Results flagged for a closer look

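Smr2 moved in opposite directions at the 2 days, every cell set being compared with its own control side: the log2 ratio of means was -1.22 at day 3 and 2.61 at day 7 over all cells, and -1.08 and 4.17 among Calca-high cells. Cldn9 among Calca-high cells was at -1.57 at day 3 and 2.75 at day 7. These differences between days were not tested, since each side and day is 1 sample of cells. The days also differ in strain, sex, ganglia and read type, and in the cells compared. In control Calca-high cells the nonpeptidergic genes summed had a median of 2965 CPM at day 3 and 140 CPM at day 7. Large myelinated neuron genes (Nefh, Pvalb, Ntrk2, Ntrk3, Spp1, Cacna1h, Vsnl1 and Ldhb summed) had medians of 222 and 2360 CPM. Atf3 exceeded control in 17 of 27 SNT Calca-high cells at day 3 and in 1 of 11 at day 7. None of these can be told apart from time.

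The outlier cells left out by the authors, all of day 3, held signal of their own. Kit averaged 496 CPM (358 to 865) in the 7 SNT and 322 CPM (183 to 451) in the 4 control outlier cells, against a maximum of 294 CPM in the kept control cells. Gpx3 averaged 11.5 CPM in the 7 SNT outlier cells and 1.96 CPM in the 4 control ones, with 2 and 0 cells at 10 CPM or more.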

How the results depend on the processing

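Comp changed under every alternative tried in the pool (log2 change -4.37 to -4.87), and the count of changed members, 1 of 4 tested, ran from 1 to 2 without each library in turn, the higher count being Kit without control library 1. The pooled Gpx3 change reversed to -0.16 without SNT library 3, -0.14 without control library 1 and -0.03 without control library 2 (0.98 without control library 3). With the library number as a replicate block the count of changed members was 1 and no call of a member changed. The count of other peptidergic markers changed, 7 of 10, was 6 with DESeq2, RLE size factors, the filter at 10 CPM, thinning, and without SNT library 1, control library 1 or control library 3, and 7 in the other fits, the block included. Scaling by library size alone moved the median of all genes from 0.02 to -0.14 and the share of higher among changed genes from 55.4% to 43.6%. Upper-quartile scaling of day-3 cells moved the median of all genes from -0.05 to 0.10. In cells, the median in place of the mean left 1 member past 2-fold at day 3 (Kit, higher, 3.03), 1 at day 7 (Kit, lower, -2.65) and 1 among day-3 Calca-high cells (Kit, higher, 4.31), so none of the 6 lower members of day 3 passed on medians. Among day-7 Calca-high cells it left 4, with 3 lower (Comp, Gng8 at -1.67 and Insrr at -1.79) and 1 higher (Smr2, 2.92). Kit (0.69) and Cldn9 (0), higher there on means, were inside 2-fold on medians. Comp was at -0.96 at day 3, 0 at day 7, -1.55 in day-3 and -7.01 in day-7 Calca-high cells. The median gave Gpx3 0.34 at day 3 and 0.32 in day-3 Calca-high cells, and Smr2 -1.35 at day 7; the cause was not tested. Male cells alone gave 5 members at day 7, and female cells alone gave Smr2 -0.31 and, among Calca-high cells, Cldn9 -0.64. Leaving out each cell in turn, chosen after seeing the data, gave counts of 4 to 7 at day 3, 3 at day 7, 4 to 7 in day-3 and 5 to 6 in day-7 Calca-high cells. Smr2, Cldn9, Gng8 and Insrr were at or near the floor of the pool, 1.5 to 5.32 CPM. Their means in day-3 control cells, 14.2, 20.5, 64.8 and 14 CPM, lay above this floor. In the control pool their means were 0.397, 1.25, 2.57 and 0 CPM. Comp (94.2 CPM in control cells, 99.8 CPM in the control pool) and Kit (38.4 and 57.3 CPM) were not lower in the pool. The cause of these differences between pool and cells was not tested. The number of Calca-high cells limits each share.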
